A study of Mus musculus with 6 samples.

Results

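The 40 genes described here encode proteins that break down fatty acids in mitochondria and peroxisomes, proteins that build peroxisomes, and a pair of acyl-CoA thioesterases. They were chosen by name and function, with earlier results of these data known. A row among the 12125 genes listed for 6 mouse kidney libraries was a condition of the choice, so all 40 had one. The libraries came from 3 Trf1+/+; Col1a2-CreERT2 mice and 3 Trf1flox/flox; Col1a2-CreERT2 mice, each library made from 500 sorted cells labelled kidney fibroblasts. TRF1, encoded by Terf1, is a protein of the shelterin complex that covers telomeres, and the study compared cells in which tamoxifen-activated Cre could remove it with cells in which it could not. Males and females of 6 to 8 weeks of age received tamoxifen by intraperitoneal injection, 3 times per week for 8 weeks, so Cre and tamoxifen were common to both genotypes. The labels do not give the sex of the mouse behind each library, so the part of sex in any difference was not tested. Cre was driven by the Col1a2 promoter, which is active in fibroblasts and other collagen-producing cells, and the mice also carried a Katushka fluorescent protein (KFP) allele that Cre switches on. Each library was 1 mouse of its genotype, so errors below describe the spread between mice and their libraries together.

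Fatty acids are activated to acyl-CoA, carried into mitochondria as carnitine esters, and shortened by cycles of dehydrogenation, hydration, a further dehydrogenation and thiolysis. Electrons from the first step pass through the electron transfer flavoprotein to the respiratory chain. Peroxisomes run a related cycle on very long, branched and bile acid precursor chains, and import their enzymes through proteins called peroxins. In the kidney this machinery is best known from the proximal tubule, a segment that draws much of its energy from fatty acids, and PPAR alpha is its main transcriptional activator.

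The libraries held between 10263382 and 12248797 reads over the listed genes, with 1 read worth 0.689 to 1.09 normalized counts. The share of listed genes with 3 reads or fewer ranged from 8.37% to 43.8%, and was highest in the library labelled Trf1+/+ replicate 1 and next in Trf1flox/flox replicate 2, at 29.8%. The normalized count of Terf1 was 0.891, 253 and 235 where the label read Trf1+/+, and 110.0, 7.65 and 12.4 where it read Trf1flox/flox. Replicate 1 of Trf1+/+, with 1 read, therefore goes against its label at the targeted gene, and Trf1flox/flox replicate 1, with 128 reads, kept far more of it than the 7 and 18 reads of its group. Directions below are given by label. Of 18 fibroblast markers, 3 were analysed here. Col1a2, whose promoter drove Cre, had at most 1.78 normalized counts in any library, Dcn was above 3 reads in 3 libraries, at 93.6, 97.3 and 39.3, and Gsn, which other cell types also express, ran from 79.0 to 1671. In contrast, 18 of 18 proximal tubule markers were listed, with summed levels of 139494, 33645 and 133854 in Trf1+/+ and 36979, 107581 and 171148 in Trf1flox/flox, and 11 of 11 markers of the later nephron segments summed to between 56391 and 159711. Collagen-producing fibroblasts were thus not evident from Col1a2 in libraries rich in tubule markers, and in such bulk samples fewer cells of a type and less RNA per cell cannot be told apart.

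No member of the group passed the test between genotypes. In limma with Benjamini-Hochberg adjustment over 9966 tested genes, 0 of the 40 had an adjusted p under 0.05, the smallest being 0.937 at Acot1, as had 0 of all tested genes. At an unadjusted p under 0.05 limma called 1 of the 40, Acot1, against 4.56% of all tested genes. That call was for a higher value in Trf1flox/flox, the direction of 3.54% of tested genes, and 0 members were called lower, against 1.01%. edgeR called 0 of the 40 at an unadjusted p under 0.05, against 1.97% of all genes, and 0 genes after adjustment. DESeq2 called 58 genes after adjustment, 0.604% of those it tested and none of them a member, and at an unadjusted p under 0.05 it called 1 member, again Acot1, against 4.27%. The smallest adjusted p of a member under any tool or setting was 0.507. The 3 libraries of 1 genotype lay wholly above or below those of the other for 2 of the 40 members, 5%, against 8.68% of all tested genes, and both of these, Acot1 and Acaa1b, were above in Trf1flox/flox, against 5.35% of all tested genes in that direction and 3.33% in the other. The members' log2 fold changes, taken as Trf1flox/flox minus Trf1+/+ on log2 of the normalized count plus 1, ran from -1.56 to 2.63 with a median of 0.01, 20 above and 20 below 0. For all tested genes the median was 0.20, with 55.9% above 0 and 44.1% below.

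**Figure D1:**
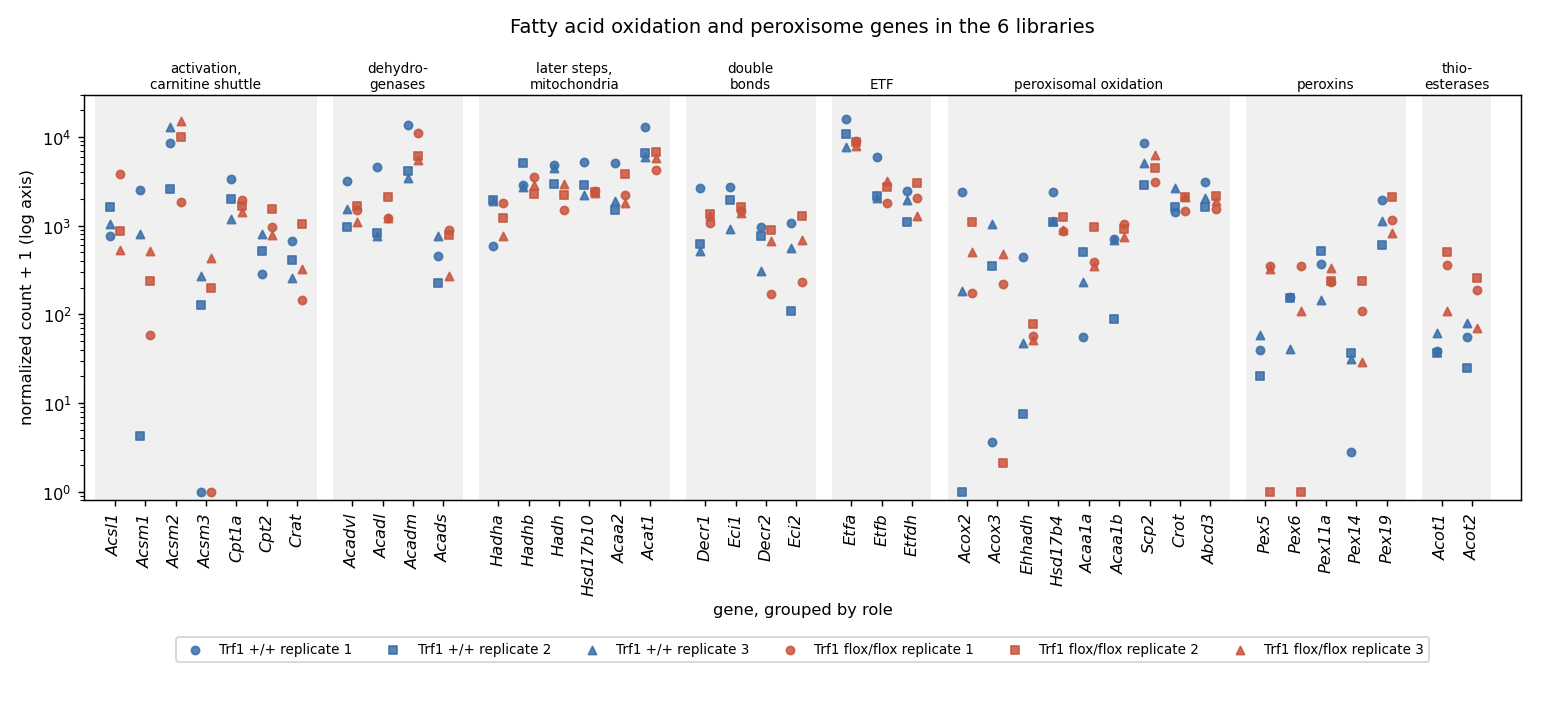
Normalized count plus 1 of each of the 40 genes (log axis) in the 3 Trf1+/+ (blue) and 3 Trf1flox/flox (red) libraries, with genes grouped by role and replicates by symbol shape. The genotypes overlap at 38 of 40 genes, and the genes with a library below 5 are Acsm1, Acsm3, Acox2, Acox3, Pex5, Pex6 and Pex14.

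The members varied less between mice than most genes of these libraries. Their median SD within genotype on the log2 scale was 0.86, from 0.38 for Etfa to 4.59 for Acsm3. The corresponding median was 2.17 over all tested genes and 1.88 over the 7866 other genes within the same range of mean level, and 34 of the 40 members were below the median of all tested genes. Only 8 of 240 member values, 3.33%, were at 3 reads or fewer, compared with 14.2% of the values of tested genes. The range of mean level ran from 73.3 to 10012, and genes were not matched by level within it. The part of level in either difference was not tested. The standard errors given below are limma's, which lean on the spread of all tested genes and so exceed what the low spread of some members alone would give. Per kilobase of exon, the median member stood at 286 normalized counts over the 6 libraries and the median tested gene at 35.7, with 32 of 40 members above the latter. Etfa headed the order at 4822 per kilobase, then Etfb at 2095, Hsd17b10 at 1868, Acat1 at 1662 and Acadm at 1474. Ehhadh at 17.8, Pex5 at 12.1 and Pex14 at 5.28 per kilobase ended it.

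The acyl-CoA thioesterases had the highest median log2 fold change of the 8 roles, 2.13 over 2 genes, although Pex14 at 2.62 and Acox2 at 2.61 exceeded Acot2 at 1.64. Other tested Acot genes, which are not members, went both ways. Acot7 at 2.47 and Acot11 at 1.54 were above 0. Acot4 at -1.17, Acot8 at -2.30, Acot9 at -0.63, Acot12 at -0.48 and Acot13 at -0.36 were below. Acot1, the cytosolic enzyme that splits long-chain acyl-CoA into free fatty acid and CoA, lies at chr12:84009490-84018371. Its normalized counts were 37.4, 35.6 and 60.1 in Trf1+/+ and 363, 507 and 109.6 in Trf1flox/flox. All Trf1flox/flox libraries were above all Trf1+/+ libraries, although Trf1flox/flox replicate 3 was much nearer to Trf1+/+ than the other two. The means were 44.4 ± 13.6 and 326 ± 201 (SD, n = 3 each). limma gave a log2 fold change of 2.63 with SE 0.91, an unadjusted p of 0.0274 and a Benjamini-Hochberg adjusted p of 0.937, and the adjusted p ranged from 0.507 to 1.00 over the alternatives. Leaving out 1 library at a time kept its log2 fold change between 2.18 and 3.28, but limma's unadjusted p was then 0.0718 without Trf1+/+ replicate 2, 0.0836 without Trf1flox/flox replicate 1 and 0.0878 without Trf1flox/flox replicate 2.

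Acot2, the mitochondrial counterpart at chr12:83987861-83993873, is the neighbouring gene of the same cluster. It had 55.2, 24.0 and 78.8 in Trf1+/+ and 186, 255 and 69.6 in Trf1flox/flox. Here Trf1flox/flox replicate 3 fell inside the Trf1+/+ range, and limma gave a log2 fold change of 1.64 with SE 0.93 and adjusted p = 0.996. The 2 genes share sequence: 20.5% of the 75-base windows of the Acot2 transcript also occur in Acot1, so reads may be divided between them, and their sum was taken after the values were seen. The summed count was 92.6, 59.7 and 139 in Trf1+/+ and 549, 762 and 179 in Trf1flox/flox, a ratio of means of 5.12 with no overlap. Of Acot1 windows, 26.4% occur in transcripts of 6 other genes, so reads may also be divided beyond this pair. Acot4, further along chromosome 12, had 116, 73.7 and 136 in Trf1+/+ and 99.7, 3.28 and 245 in Trf1flox/flox. Acot3, which did not pass the filter, had 0.891, 0.829 and 200 in Trf1+/+ and 1.72, 17.5 and 3.45 in Trf1flox/flox. Genotypes overlapped for both. Proximal tubule markers summed to 36979, 107581 and 171148 in the Trf1flox/flox libraries, beside Acot1 counts of 363, 507 and 109.6. In Trf1+/+ they summed to 139494, 33645 and 133854, beside Acot1 counts of 37.4, 35.6 and 60.1. The part of those cells in the difference was not tested.

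The promoters of this pair are printed to show how the sequences before the start sites compare in genes that are near-copies within their transcripts. Each line is from RefSeq on GRCm38.p6, 5′ to 3′ on the gene's strand within 250 bases before its start site, without bases of annotated exons, and capitals mark a CCAAT box (CCAAT, or ATTGG for the other strand). Acot1 is at chr12:84009252-84009489 and Acot2 at chr12:83987611-83987860, both on the plus strand.
Acot1: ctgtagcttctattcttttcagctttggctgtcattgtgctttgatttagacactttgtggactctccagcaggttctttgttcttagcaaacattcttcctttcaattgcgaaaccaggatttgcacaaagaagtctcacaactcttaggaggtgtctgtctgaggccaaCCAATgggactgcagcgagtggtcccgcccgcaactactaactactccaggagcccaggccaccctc
Acot2: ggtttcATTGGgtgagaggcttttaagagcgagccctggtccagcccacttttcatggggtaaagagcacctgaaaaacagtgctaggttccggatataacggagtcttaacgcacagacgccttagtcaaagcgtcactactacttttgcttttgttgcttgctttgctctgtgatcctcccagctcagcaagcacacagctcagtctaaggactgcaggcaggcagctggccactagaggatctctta
Over the full 250 bases the pair was identical at 128 of 283 aligned columns, 45.2%, and the longest shared run was 9 bases. The alignment allowed gaps and no unrelated promoters were aligned, so this share has no background beside it. Each promoter held 1 CCAAT box, at different distances from the start. A box on either strand was present in 33.8% of the 32851 mouse promoters of the same length and in 19 of the 40 promoters, 47.5%, found for 34 of the member genes. A match is a description of letters only.

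**Figure D2:**
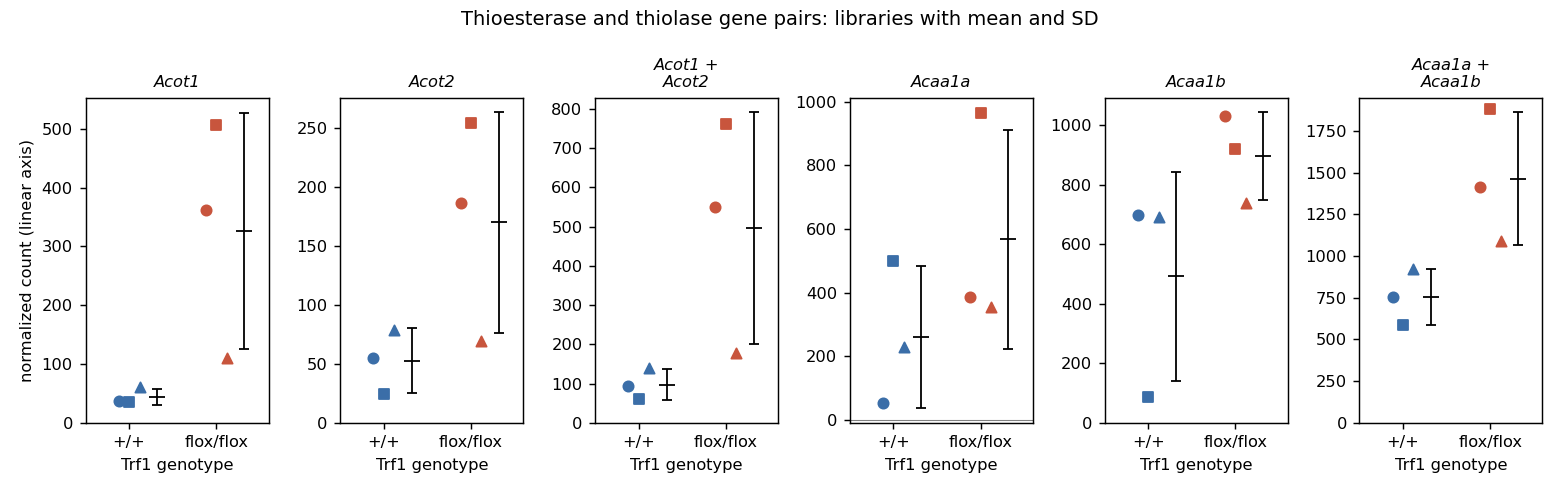
Normalized counts (linear axis) of Acot1, Acot2, Acaa1a, Acaa1b and the sums of each pair in 3 Trf1+/+ and 3 Trf1flox/flox libraries, with the mean and SD beside the points. Acot1, Acaa1b and both sums separate the genotypes without overlap, while Acot2 and Acaa1a do not.

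The peroxisomal thiolases Acaa1a and Acaa1b, which carry out the last step of the peroxisomal cycle, are a second pair of near-copies on chromosome 9. Acaa1b, at chr9:119148023-119157093, had 697, 87.8 and 694 in Trf1+/+ and 1032, 919 and 738 in Trf1flox/flox. The genotypes did not overlap, but Trf1flox/flox replicate 3 exceeded the highest Trf1+/+ library by little, and Trf1+/+ replicate 2 stood far below the other five. Means were 493 ± 351 and 896 ± 148 (SD, n = 3 each), with a log2 fold change of 1.34, SE 1.08 and an adjusted p of 0.996 by limma with Benjamini-Hochberg adjustment. Without Trf1+/+ replicate 2 the log2 fold change was 0.35.

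Acaa1a, at chr9:119339676-119350299, had 54.3, 498 and 229.6 in Trf1+/+ and 385, 965 and 354 in Trf1flox/flox. Trf1+/+ replicate 2, the lowest library for Acaa1b, was the highest Trf1+/+ library for Acaa1a, and the genotypes overlapped (log2 fold change 1.46, SE 1.10, adjusted p = 0.996, limma). In the Acaa1a transcript 27.3% of 75-base windows also occur in Acaa1b, so the split of reads between them is uncertain. Their sum, also taken after the values were seen, was 752, 586 and 923 in Trf1+/+ and 1417, 1884 and 1092 in Trf1flox/flox, a ratio of means of 1.94 without overlap. Trf1+/+ replicate 2 was also the lowest Trf1+/+ library for proximal tubule markers, at 33645. Trf1flox/flox replicate 1, with 1032 Acaa1b counts, was nearly as low for these markers, at 36979. The part of those cells in the difference was not tested. Exons of Acaa1b overlapped those of Dlec1 on the other strand over 11.4% of their length, which these unstranded libraries cannot separate.

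For comparison with the thioesterase pair, the corresponding stretches are given for Acaa1a, chr9:119341160-119341293 on the plus strand, and Acaa1b, chr9:119157094-119157343 on the minus strand, with CCAAT boxes in capitals.
Acaa1a: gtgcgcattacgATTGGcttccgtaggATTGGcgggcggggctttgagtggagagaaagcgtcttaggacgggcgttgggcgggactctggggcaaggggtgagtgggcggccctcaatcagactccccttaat
Acaa1b: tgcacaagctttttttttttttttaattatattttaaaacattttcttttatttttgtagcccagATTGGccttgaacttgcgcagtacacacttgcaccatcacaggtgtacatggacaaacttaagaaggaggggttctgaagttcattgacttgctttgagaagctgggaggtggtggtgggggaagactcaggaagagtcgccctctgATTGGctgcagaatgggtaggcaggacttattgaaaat
Within 250 bases Acaa1a held 3 boxes and Acaa1b 2, and the pair was identical at 48.2% of 284 aligned columns with a longest shared run of 8 bases. This share, too, has no background from unrelated promoters. A direct repeat of the half-site AGGTCA with 1 base of any kind between the copies, the element to which PPAR alpha binds with its partner RXR, was searched on both strands of the 300 bases around each start. With up to 2 mismatches among its 12 fixed letters it was found in 2 of the 40 member promoters, 5%, at Acox2 and Etfa, and in 3.86% of all promoters. No exact copy was found in a member promoter, and 0.0396% of all promoters held one. None of the promoters of Acot1, Acot2, Acaa1a and Acaa1b contained these letters in this window.

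The other peroxisomal oxidation genes included the most uneven members. Acox2, the oxidase for branched chains and bile acid intermediates, at chr14:8225511-8259353, had 2384, 0 and 180.3 in Trf1+/+ and 175, 1102 and 506 in Trf1flox/flox. It ranged from 0 to 2384 within Trf1+/+ alone. Its means were 855 ± 1328 and 594 ± 469 (SD, n = 3 each), lower in Trf1flox/flox, whereas the log2 fold change was 2.61 (SE 2.83, adjusted p = 0.996, limma) on the log2 scale. Without Trf1+/+ replicate 2, the library at 0, it was -0.51. Acox3, an oxidase for branched chains such as pristanoyl-CoA, had 2.67, 353 and 1042 in Trf1+/+ and 217, 1.09 and 481 in Trf1flox/flox. Libraries with 3 reads or fewer stood in both genotypes, Trf1+/+ replicate 1 and Trf1flox/flox replicate 2, which were also the 2 libraries with the most genes at that level. Ehhadh, the L-bifunctional enzyme of hydration and dehydrogenation, had 441, 6.63 and 46.3 in Trf1+/+ and 55.8, 77.6 and 50.3 in Trf1flox/flox. The 3 Trf1flox/flox values lay close together inside a Trf1+/+ range of 66.5-fold.

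Hsd17b4, the D-bifunctional enzyme for branched and very long chains, had 2411, 1112 and 1136 in Trf1+/+ and 873, 1255 and 883 in Trf1flox/flox. Its values overlapped and its log2 fold change of -0.55 was negative in every alternative. Scp2, a lipid carrier whose longer form is a thiolase for branched chains, had 8568, 2864 and 5103 in Trf1+/+ and 3109.5, 4426 and 6258 in Trf1flox/flox. The ranges overlapped, and 36.7% of windows of the Scp2 transcript also occur in the pseudogene Scp2-ps2. Crot, which makes medium-chain carnitine esters for export from peroxisomes, had 1431, 1631 and 2666 in Trf1+/+ and 1468, 2123 and 2111 in Trf1flox/flox. Abcd3, the transporter that brings acyl chains into the peroxisome, had 3134, 1626 and 2068 in Trf1+/+ and 1553, 2169 and 1889 in Trf1flox/flox. Both Crot and Abcd3 were among the steadiest members, with highest to lowest ratios over the 6 libraries of 1.86 and 2.02 and group means that differed by a log2 fold change of 0.03 and -0.24.

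Among peroxins, Pex14 encodes the docking protein of the import pore and lies at chr4:148960535-149099876. It had 1.78, 35.6 and 30.5 in Trf1+/+ and 107, 236 and 28.3 in Trf1flox/flox. Trf1flox/flox replicates 1 and 2 were above all Trf1+/+ libraries and replicate 3 was below 2 of them; means were 22.7 ± 18.3 and 124 ± 105 (SD, n = 3 each), with a log2 fold change of 2.62, SE 1.40 and an adjusted p of 0.996 by limma. Exons of Gm17029 overlapped 28.3% of Pex14 exon length, and Pex14 was the lowest member per kilobase. Pex5, the receptor that carries enzymes with a peroxisomal signal to that pore, had 38.3, 19.1 and 57.2 in Trf1+/+ and 354, 0 and 320.4 in Trf1flox/flox. The Trf1flox/flox libraries lay on both sides of the Trf1+/+ range, 2 above and 1 at 0. Pex6, an ATPase that recycles the receptor, had 158, 152 and 39.4 in Trf1+/+ and 351, 0 and 108 in Trf1flox/flox. The 0 was again Trf1flox/flox replicate 2, and a listed 0 allows up to 3 reads by counting error alone. Without that library the log2 fold change of Pex6 moved from -1.56 to 0.97 and that of Pex5 from 0.44 to 3.24.

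Pex11a, which helps peroxisomes elongate and divide, had 368, 518 and 144 in Trf1+/+ and 230.3, 239 and 334 in Trf1flox/flox. Pex19, the chaperone for peroxisomal membrane proteins, had 1920.4, 609.8 and 1132 in Trf1+/+ and 1171, 2092 and 815 in Trf1flox/flox. Ranges overlapped for both, with log2 fold changes of -0.19 and 0.20.

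**Figure D3:**
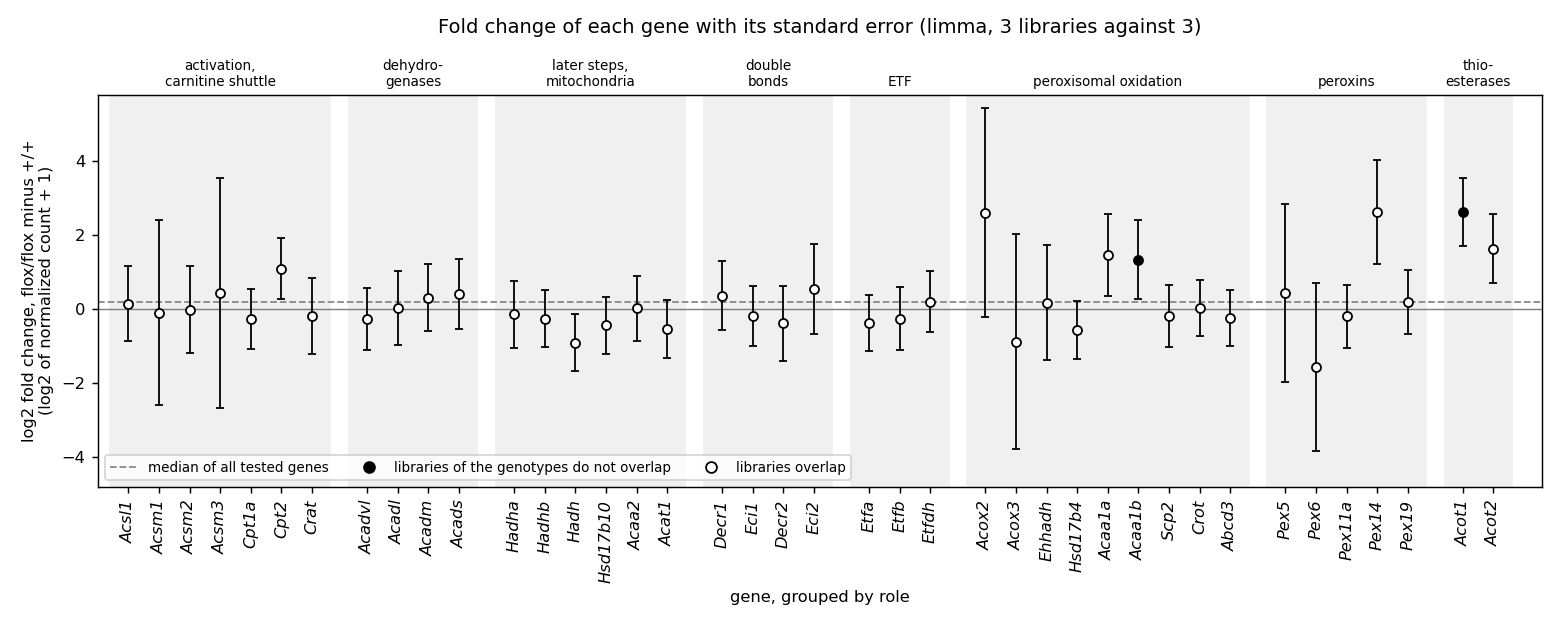
log2 fold change of each of the 40 genes, Trf1flox/flox minus Trf1+/+ on log2 of normalized count plus 1, with limma's standard error as bars; filled points mark genes whose libraries do not overlap between genotypes and the dashed line is the median of all tested genes, 0.20. Points spread around 0, and the widest bars belong to Acsm3, Acox3, Acox2, Acsm1, Pex5 and Pex6.

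Genes of fatty acid activation and the carnitine shuttle numbered 7, of which 3 had a log2 fold change above 0 and 4 below, with a median of -0.01. Cpt2, the inner-membrane transferase that returns acyl groups from carnitine to CoA, lies at chr4:107903981-107923610. It had 285, 522 and 800.1 in Trf1+/+ and 962, 1530.0 and 793 in Trf1flox/flox. Only Trf1flox/flox replicate 3 and Trf1+/+ replicate 3 crossed, at 793 and 800.1, and the means were 536 ± 258 and 1095 ± 386 (SD, n = 3 each). The log2 fold change of 1.10 had an SE of 0.83 and an adjusted p of 0.996 in limma, and it was positive in every alternative, from 0.43 to 1.45. Cpt1a, its outer-membrane partner and the entry point that malonyl-CoA inhibits, had 3394, 2018 and 1183 in Trf1+/+ and 1966, 1673 and 1439.5 in Trf1flox/flox. Unlike Cpt2, all Trf1flox/flox values of Cpt1a lay inside the Trf1+/+ range, with a log2 fold change of -0.26. Crat, which buffers acetyl-CoA as acetylcarnitine, had 673, 406 and 253 in Trf1+/+ and 145, 1034 and 320.4 in Trf1flox/flox. Its ranges overlapped broadly.

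Acsl1 activates long-chain fatty acids, and it had 754, 1609 and 1035 in Trf1+/+ and 3774, 863 and 531 in Trf1flox/flox. Trf1flox/flox replicate 1 alone was above all other libraries. The Acsm genes encode mitochondrial medium-chain acyl-CoA synthetases. Acsm2 had 8443, 2609 and 12836 in Trf1+/+ and 1829, 10000.5 and 15051 in Trf1flox/flox. Trf1+/+ replicate 2 and Trf1flox/flox replicate 1 were the lowest of their genotypes, as they were for the proximal tubule markers; the part of those cells was not tested. Acsm1 had 2510.0, 3.31 and 795 in Trf1+/+ and 57.6, 236 and 513 in Trf1flox/flox. Acsm3 had 0, 128 and 273 in Trf1+/+ and 0, 198 and 436 in Trf1flox/flox. Acsm1 ranged 757-fold over the 6 libraries and Acsm3 was at 0 in 1 library of each genotype, and exons of Eri2 on the other strand cover 39.7% of Acsm3 exon length.

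The 4 acyl-CoA dehydrogenases open the mitochondrial cycle on chains of decreasing length, and 3 of them had a log2 fold change above 0, with a median of 0.17. Acadvl, for very long chains, had 3183, 964 and 1523 in Trf1+/+ and 1504, 1650.2 and 1107 in Trf1flox/flox. Acadl, for long chains, had 4581, 822 and 754 in Trf1+/+ and 1207, 2075 and 1217 in Trf1flox/flox. Acadm, for medium chains, had 13668, 4096 and 3436 in Trf1+/+ and 11174, 6072 and 5465 in Trf1flox/flox. In these 3 genes Trf1+/+ replicate 1 was the highest library of all 6. Acadl and Acadm did not overlap between genotypes once it was left out, Trf1flox/flox being above. The same held for 9.15% of all tested genes. Leaving out the highest Trf1+/+ library of a gene can only favour that direction. Acads, for short chains, had 456, 227 and 773 in Trf1+/+ and 892, 785 and 268 in Trf1flox/flox. It overlapped, with Trf1flox/flox replicate 3 low. Log2 fold changes of the 4 were -0.26, 0.03, 0.32 and 0.41, and 42.9% of Acadvl exon length overlaps Dvl2 on the other strand.

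The later mitochondrial steps held 6 genes, 5 with a log2 fold change below 0 and a median of -0.34. Hadh, the dehydrogenase of the third step for medium and short chains, lies at chr3:131233419-131272101. It had 4789, 2946 and 4506 in Trf1+/+ and 1485, 2188 and 2968 in Trf1flox/flox. The ranges met only where Trf1flox/flox replicate 3, at 2968, passed Trf1+/+ replicate 2, at 2946. Means were 4080.3 ± 993 and 2214 ± 742 (SD, n = 3 each), and limma gave a log2 fold change of -0.91, SE 0.77 and adjusted p = 0.996, with -1.15 to -0.63 over the alternatives. Hsd17b10, which oxidizes branched short chains from isoleucine, had 5260.5, 2844 and 2225 in Trf1+/+ and 2449, 2401 and 2322 in Trf1flox/flox. Its 3 Trf1flox/flox libraries spanned a narrow range inside that of Trf1+/+.

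Acat1, the thiolase of acetoacetyl-CoA in ketone body use and isoleucine breakdown, had 12981, 6547 and 5946 in Trf1+/+ and 4265, 6736 and 5806 in Trf1flox/flox. Acaa2, the general mitochondrial thiolase, had 5113, 1484 and 1903 in Trf1+/+ and 2212, 3848 and 1812 in Trf1flox/flox. Ranges overlapped in both, with log2 fold changes of -0.53 and 0.03. Hadha and Hadhb encode the α and β subunits of the trifunctional protein of the inner membrane and lie head to head on chromosome 5, with 272 bases between their RefSeq start sites. Hadha had 583, 1969 and 1915 in Trf1+/+ and 1791, 1224 and 759 in Trf1flox/flox. Hadhb had 2852, 5029 and 2743 in Trf1+/+ and 3555, 2293 and 2847 in Trf1flox/flox. Although the subunits form 1 complex, their count ratio, Hadhb over Hadha, was not constant: 4.90, 2.55 and 1.43 in Trf1+/+ and 1.99, 1.87 and 3.75 in Trf1flox/flox, with no separation of genotypes. Of Hadhb windows, 57.2% also occur in the annotated gene Gm13910.

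Double bond handling was covered by 4 genes, 2 above and 2 below 0. Decr1, the mitochondrial 2,4-dienoyl-CoA reductase, had 2653, 619.8 and 522 in Trf1+/+ and 1063, 1363 and 1274 in Trf1flox/flox. Decr2, its peroxisomal counterpart, had 957, 767 and 308 in Trf1+/+ and 169, 892 and 675 in Trf1flox/flox. Trf1+/+ replicate 1 was the highest library for both genes. Without it Decr1 did not overlap, with Trf1flox/flox above, as in 9.15% of all tested genes. Eci1, a mitochondrial enoyl-CoA isomerase, had 2695, 1946 and 920.3 in Trf1+/+ and 1467, 1611 and 1393 in Trf1flox/flox. Eci2, an isomerase found in peroxisomes and mitochondria, had 1072, 108 and 553 in Trf1+/+ and 231, 1297 and 681 in Trf1flox/flox. Both overlapped, and the highest library exceeded the lowest by 2.93-fold for Eci1 and by more for Eci2.

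The subunits of the electron transfer flavoprotein, Etfa and Etfb, were the most abundant members per kilobase, while Etfdh ranked 23 of 40 at 264 per kilobase. Etfa, the α subunit and the member with the lowest spread within genotype, had 15970.3, 10747 and 7721 in Trf1+/+ and 9018, 8679 and 7934 in Trf1flox/flox. The lowest and the highest libraries were both Trf1+/+, and the log2 fold change was -0.36. Etfb, the β subunit, had 5856, 2168 and 2052 in Trf1+/+ and 1785, 2709 and 3193 in Trf1flox/flox. Etfdh, which hands the electrons to ubiquinone, had 2436, 1103 and 1932 in Trf1+/+ and 2037, 3048 and 1281 in Trf1flox/flox. All 3 overlapped between genotypes, and the ratio of Etfa to Etfb ran from 2.49 to 5.05. The Etfb value is uncertain in scale, because exons of Gm45233 on the same strand cover 53.0% of its exon length.

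The members' highest and lowest values were unevenly spread over the libraries. The library labelled Trf1+/+ replicate 1 held the highest value of 19 of the 40 members, 47.5%, compared with 27.4% of all tested genes. Trf1+/+ replicate 2 held the lowest value of 13 members, 32.5%, compared with 13.6% of all tested genes. The summed counts of the 40 genes were 122867, 61255 and 71616 in Trf1+/+ and 66667, 80771 and 75142 in Trf1flox/flox, so both the highest and the lowest sums carried the Trf1+/+ label. The 22 mitochondrial members had sums between 49223 and 98437 in Trf1+/+ and between 51049 and 61607 in Trf1flox/flox, and the 15 peroxisomal members between 10280 and 22567 and between 11251 and 16496. Fold changes split 9 above and 13 below 0 for mitochondrial members, median -0.11, and 8 above and 7 below for peroxisomal members, median 0.03. Replicate 1 of Trf1+/+ is also the library with the most genes at 3 reads or fewer and the one in which Terf1 went against its label; the part of either in the members' high values was not tested.

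**Figure D4:**
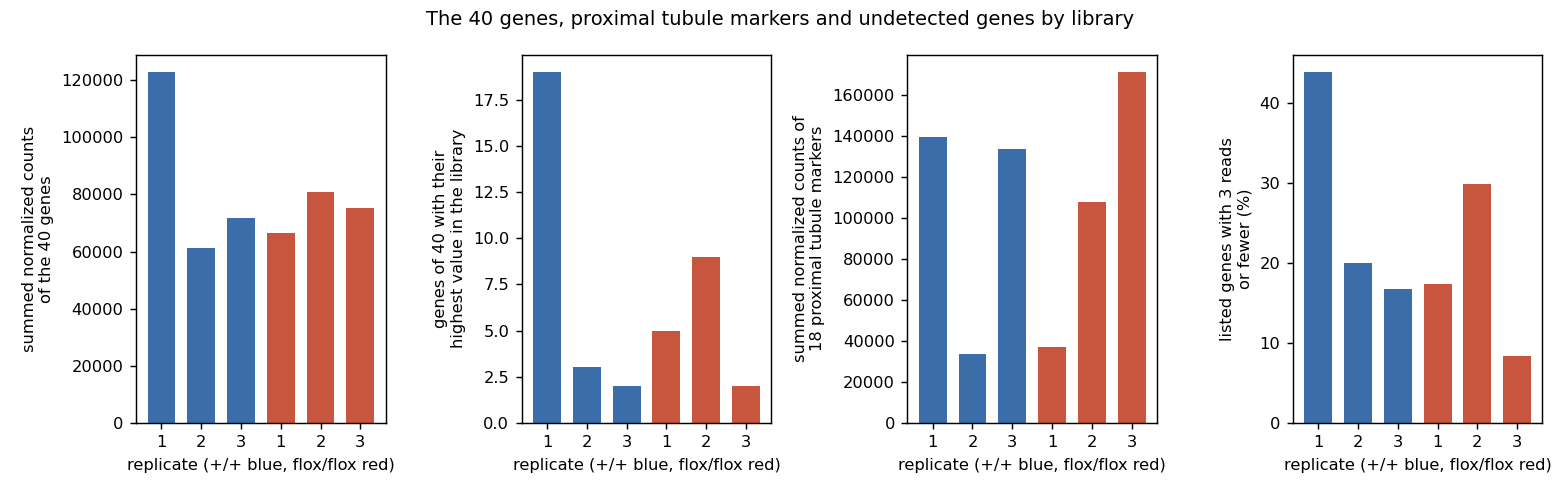
Bars from 0 for each of the 6 libraries (Trf1+/+ blue, Trf1flox/flox red) give the summed normalized counts of the 40 genes, the number of the 40 with their highest value in that library, the summed counts of 18 proximal tubule markers and the percentage of listed genes with 3 reads or fewer. Trf1+/+ replicate 1 is highest in the first, second and last panel, with 122867 counts, 19 genes and 43.8%, and Trf1flox/flox replicate 3 is highest in the third.

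Leaving out single libraries moved the balance of the group. Without Trf1+/+ replicate 1, 26 members were above 0 and 14 below, with a median of 0.21 against -0.03 for all tested genes, and without Trf1+/+ replicate 2 it was 14 above and 26 below, with a median of -0.20 against 0.22. Without Trf1+/+ replicate 1 the genotypes did not overlap in 6 members with Trf1flox/flox above (Acadl, Acadm, Decr1, Ehhadh, Acaa1b and Acot1), 15% against 9.15% of all tested genes. In 1 member, Hadha, Trf1flox/flox was below without overlap, 2.5% against 8.74%. Overlap was recounted without this library only, and it held the highest value of 19 of the 40 members. With libraries scaled to the same upper quartile, 32 members were above 0 and 8 below, but the median of all genes moved to 0.45 as well. Relative to that median the members stood at -0.16, and at -0.19 under the deposited scaling, with 15 above and 25 below it each time. Over 15 alternatives 29 of the 40 members changed sign at least once. The 11 that did not were Cpt2, Acaa1a, Acaa1b, Pex14, Acot1 and Acot2, with positive values, and Hadh, Hsd17b10, Acat1, Etfa and Hsd17b4, with negative values.

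**Figure D5:**
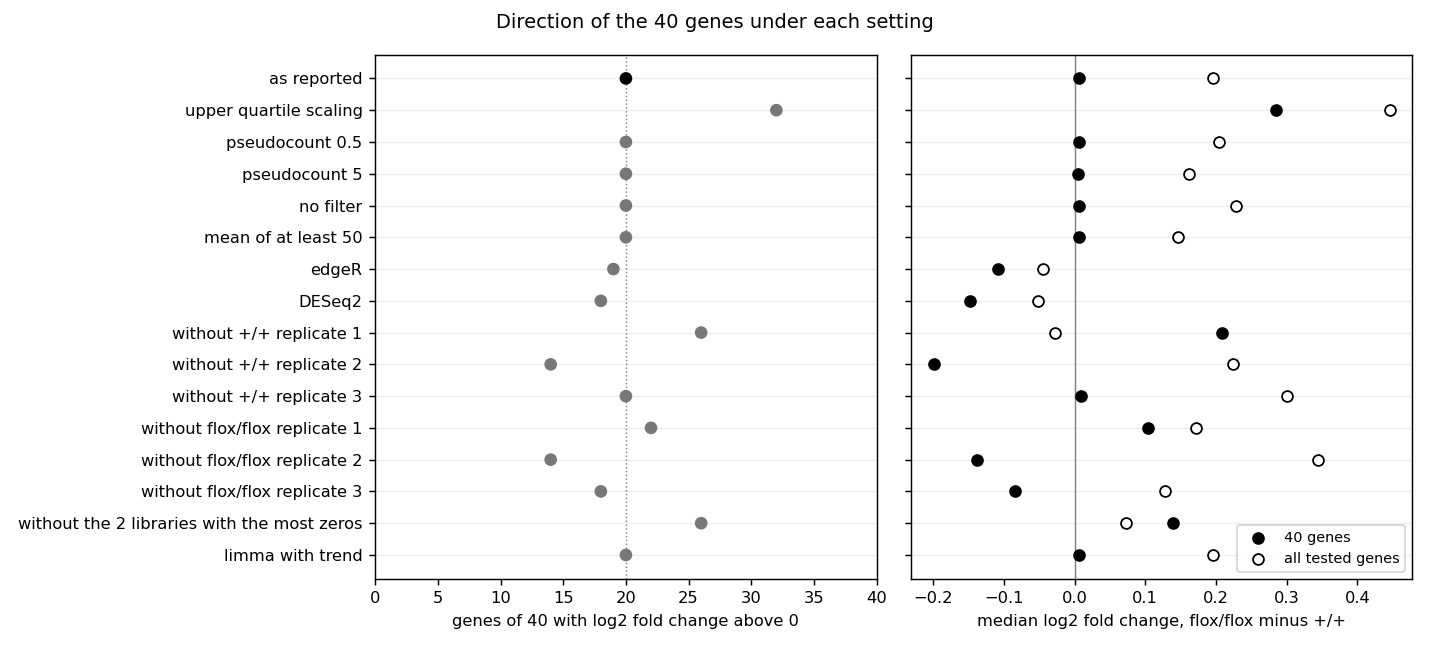
For the reported fit and 15 alternatives (vertical axis), the left panel shows how many of the 40 genes had a log2 fold change above 0 and the right panel the median log2 fold change of the 40 genes (filled) and of all tested genes (open). Counts run from 14, without Trf1+/+ replicate 2 or Trf1flox/flox replicate 2, to 32 under upper quartile scaling.

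Related pathway genes, listed by function with earlier results of these data known, were also divided in direction. Of 40 other tested fatty acid oxidation enzymes and carriers, 16 were above 0 and 24 below, with a median log2 fold change of -0.23 and 0 calls by limma at either p. That median was 0.05 under upper quartile scaling, 0.09 without Trf1+/+ replicate 1 and 0.11 without Trf1flox/flox replicate 1. In this list the genotypes did not overlap for Echs1, the short-chain enoyl-CoA hydratase, which was above in Trf1flox/flox, and Acad9, a complex I assembly factor of the dehydrogenase family, which was below. Of 28 other peroxisome genes 14 were above and 14 below, median -0.01 (0.21 under upper quartile scaling), with Pex16 below without overlap. Of 5 ketone body enzymes 1 was above and 4 below, median -0.48. Fatty acid uptake and binding genes split 3 to 4, median -0.08. In that list the transporter Slc27a1 stood at 0, 239 and 208 for Trf1+/+ (normalized counts) against 521, 812 and 311 for Trf1flox/flox, without overlap.

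Regulators and known targets of PPAR alpha, 14 tested and without the members, split 10 above and 4 below with a median of 0.74. Fatty acid synthesis genes, 13 tested, split 9 to 4 with a median of 0.92. Both medians were smaller than the SD between replicates of the list's library median, 1.03 and 1.19. The synthesis list turned in the count tests, with 6 genes above 0 and a median of -0.22 in edgeR and 6 genes and -0.20 in DESeq2. In the first list the lipid hydroxylase Cyp4a14 had at most 1 read per Trf1+/+ library (normalized counts of 0, 0.829 and 0), against normalized counts of 1535, 1078 and 259.8 for Trf1flox/flox. Its adjusted p was 0.110 in limma and 0.265 in edgeR but 8.86e-10 in DESeq2. Vnn1, the pantetheinase vanin-1, had a listed value of 0 for every Trf1+/+ mouse, against 921, 6.56 and 406 for Trf1flox/flox, and was not tested because it did not pass the filter on low values. Ppargc1a, a coactivator of oxidation genes, was below in Trf1flox/flox without overlap. In the second list the desaturase Scd1 had 0, 2.49 and 0.985 in Trf1+/+, at most 3 reads, and 943, 89.6 and 55.1 in Trf1flox/flox, with adjusted p of 0.274 in limma, 1.00 in edgeR and 0.000563 in DESeq2. Over all lists 53 of 107 tested genes were above 0 and 54 below, limma gave 2 of them an unadjusted p under 0.05, and 7 did not overlap, 6.54% against 8.68% of all tested genes.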

How the data were processed

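RNA of 500 sorted cells per library was measured by oligo(dT)-primed, unstranded RNA sequencing. The processing notes name TopHat2 2.0.10, Bowtie 1.0.0, SAMtools 0.1.19, HTSeq 0.6.1, FastQC 0.11.7 and DESeq2, and the authors deposited 1 table of normalized counts per gene (unit: signal, counts divided by a size factor per library). Every value was a whole multiple, within 0.01 of a read, of the value of 1 read in its library (100% of values), so whole reads were recovered for count tests, which called 0 genes (edgeR) and 58 (DESeq2) at an adjusted p under 0.05. The library preparation used no molecular identifiers, so floors of 3 reads cover counting error only.

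Groups were taken from the genotype labels, and replicate numbers only name libraries and pair no mice. The filter kept the 9966 of 12125 genes that reached 10 normalized counts in 3 or more libraries, and these were tested on log2(normalized count + 1), a scale that understates changes of low genes, with limma 3.58.1 in R 4.3.3 and Benjamini-Hochberg adjustment. The alternatives were upper quartile scaling, pseudocounts of 0.5 and 5, no filter, a mean of at least 50, edgeR 4.0.16, DESeq2 1.42.0, each library left out, the 2 libraries with the most zeros left out and, added after the data were seen, limma with trend. The fits were tested on simulated counts with the same dispersion for every gene and no added zeros. Those counts lacked the spread and the zeros of these libraries, so that test does not show how the fits perform here.

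Values are given in every library for all 40 genes. Full statistics are given for those whose genotypes do not overlap and for the 8 with the smallest p. Genes of the pathway lists are named where genotypes do not overlap, whether or not they passed the filter. Other Acot genes, and the sums and ratios of gene pairs, were added after their values were seen. The members and lists were chosen with earlier results of these data known.

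Symbols matched GENCODE M21 for 98.2% of genes (11911). Coordinates are from GENCODE M21 on GRCm38, matched by symbol; the paper names GRCm38 and the processing notes GRCm39, and the table holds no coordinates. Promoters were matched to RefSeq (GRCm38.p6) for 34 members; Acat1, Crat, Decr1, Pex19, Acaa2 and Hsd17b4 were not analysed for promoters. Shared windows are 75-base stretches of 1 transcript per gene that occur in transcripts of another gene, and 24 of the 40 members had none.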

Additional observations from a re-analysis of the deposited data

How the results depend on the processing

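Of the 8 members with full statistics, 7 kept their direction in all 15 alternatives and none passed an adjusted p of 0.05 in any; the exception was Acox2, with a log2 fold change of -0.38 in edgeR, -0.49 in DESeq2 and -0.51 to 5.10 with single libraries left out. Upper quartile scaling put 32 members above 0 and 8 below. The number of members at an unadjusted p under 0.05 was 0 in edgeR and in limma with trend and 0 to 1 with single libraries left out, and over all genes it was 196 in edgeR and 322 to 829 with single libraries left out (829 without Trf1+/+ replicate 3). After adjustment DESeq2 called 58 genes. Ketone body enzymes above 0 numbered 2 under upper quartile scaling, 4 without the 2 libraries with the most zeros (Trf1+/+ replicate 1 and Trf1flox/flox replicate 2; median 0.38) and 1 to 4 with single libraries left out (median -0.98 to 0.30). Fatty acid uptake genes above 0 numbered 5 under upper quartile scaling, no filter, edgeR and DESeq2. They numbered 7 without the 2 libraries and 3 to 5 with single libraries left out. With no filter the list held 9 genes rather than 7, because Fabp1 and Fabp5 entered it. The median of the uptake list was 1.03 with no filter, 0.54 in edgeR, 0.50 in DESeq2, 0.42 without the 2 libraries and -0.22 to 0.78 with single libraries left out. The medians of the synthesis list (in edgeR and DESeq2) and of the other oxidation enzymes changed sign too, within the spread between replicates. Under upper quartile scaling the median of the other peroxisome genes went from -0.01 to 0.21, also within that spread. The cause of these changes was not tested. No paired analysis was possible because the labels give no replicate numbers.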
